A study of Mus musculus with 5 samples.

Results

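The 35 genes described here store, release or make fat. They were chosen as a list of known fat storage, lipolysis and fatty acid synthesis genes, with earlier results of these data known, and they are 35 of the 30099 gene symbols counted in the series. By role, 5 coat the lipid droplet, 6 take up or carry fatty acids and glucose, 7 build glycerol and triglyceride, 5 break triglyceride down, 9 make fatty acids, and 3 are secreted by or abundant in fat cells. The genes were followed in 3 cell types of bone marrow, fat cells, reticular cells and endothelial cells, and in 5 libraries.

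A fat cell keeps triglyceride in a droplet coated by perilipins, fills it with fatty acids that it takes from blood or makes from acetyl-CoA, and empties it through a chain of lipases that hormones switch on. In bone marrow, fat cells share their origin with the CXCL12-rich reticular cells, stromal cells that express the leptin receptor, line the vessels and support blood formation. Endothelial cells of capillaries pass fatty acids from blood to the tissue with uptake proteins and carriers that fat cells also use.

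All mice carried Lepr-cre, which is active in leptin receptor-expressing stroma, and the Cre-dependent reporter R26R-tdTomato, and tdTomato-positive cells were sorted from dissociated femurs without their growth plates and proximal ends. About 30000 cells per group were loaded for single-cell RNA sequencing on a BD Rhapsody instrument. Mice were 15 weeks old in 3 groups: control was uninjured, naive had 1 marrow ablation surgery at an age of 13 weeks, and exhausted had it at both 9 and 13 weeks. Mice of 18 months made up the other 2 groups, of which aged was uninjured and aged-injury was taken 1 week after 1 ablation. Naive and exhausted were taken 2 weeks after their last surgery. The ablation comparisons at the 2 ages therefore differ in time after surgery too, which cannot be told apart from age. Values for all 5 libraries are listed in this order, and values for the 4 libraries that held fat cells in the same order without aged. Marrow ablation empties the marrow cavity, which then fills with bone and later with marrow again. Each group was 1 library. Neither the number of mice in a library nor a batch is given in the labels, so no difference between groups could be set against the spread between mice, and every interval is a 95% interval that covers counting error only, apart from those of list medians, which run over genes.

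After filtering, 9253, 5242, 6277, 7560 and 19497 cells were kept in the 5 libraries, with medians of 6671 to 9512 molecules (unique molecular identifiers, UMIs) per cell, and at most 5 cell labels were shared between any pair of libraries. Cells were sorted into types by markers that include none of the 35 genes. Fat cells carried at least 3 of 11 fat markers, reticular cells at least 4 of 8 markers and 5000 CPM of Cxcl12 (CPM, UMIs per 1000000 UMIs of those cells), and endothelial cells at least 4 of 12. A fat or reticular cell that also passed an endothelial, blood, bone, pericyte or cartilage list was left out as mixed, which set aside 38.0 to 56.1% of the cells that passed the fat or reticular list, with 33.7 to 53.0% through the bone list. Values with wider gates, in which a bone, pericyte or cartilage pass did not remove a cell, are therefore given beside some of the results that they move.

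Fat cells numbered 6, 56, 21, 0 and 101. These were 0.0648% of the kept cells (95% interval 0.0238 to 0.141) for control, 1.07% (0.808 to 1.39) for naive, 0.335% (0.207 to 0.511) for exhausted and 0.518% for aged-injury (0.422 to 0.629), and 0 of 7560 cells in aged allows a share of up to 0.0397%. With wider gates there were 10, 82, 23, 4 and 281 such cells. Depth differed between the libraries with fat cells, whose fat cells had medians of 7297.5, 7246.5, 10652 and 19165 UMIs, in an order unlike that of the counts. After thinning every cell to 3000 UMIs the shares were 0.0462%, 0.709%, 0.132%, 0% and 0.125%. The part of depth in the share was not tested. Reticular cells numbered 3341, 1145, 1335, 3710 and 5694, and endothelial cells 40, 214, 150, 38 and 448.

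The fat gate was checked against genes outside its list. Lpl, the lipoprotein lipase gene, stood at 12023 to 15909 CPM in the fat cells of the 4 libraries against 4600 to 7603 CPM in reticular cells of all 5. Adipoq, the adiponectin gene, did not separate them throughout. It stood at 7182, 4657, 5968 and 2758 CPM in the fat cells of the 4 libraries. The reticular cells of the same libraries had 4006, 4538, 4980 and 4143 CPM, so in aged-injury the fat cells had less of it. Reticular RNA was also present in the gate: Cxcl12 stood at 10242, 4010, 13433 and 13019 CPM in fat cells against 25549 to 37424 CPM in reticular cells, and the summed reticular markers were 2522, 1539, 3349 and 3829 CPM in fat cells. Its part in the fat cell values was not tested. In aged-injury the summed fat markers of the gate were 421 CPM against 973, 1118 and 1386 CPM in the other 3 libraries with fat cells. Exactly 3 markers were carried by 4 of 6, 24 of 56, 15 of 21 and 75 of 101 fat cells. In aged-injury Col1a1, a collagen gene of bone-forming cells, stood at 8143 CPM against 64.0, 3393 and 933 CPM in the other 3. Ptprc, a gene of most blood cells, stood at 0 to 3.46 CPM in the fat cells of the 4 libraries. The gated endothelial cells had 979 to 1696 CPM of Cdh5, the gene of an endothelial junction protein. They also carried the reporter transcript tdTomato, at 55.3 to 104 CPM, against 66.0 to 89.6 CPM in reticular cells.

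Promoters show what letters stand before the genes that the results turn on. RefSeq promoter windows on GRCm38.p6 (the 250 bases before a transcript start) matched 24 of the 35 genes, with 34 windows in all, and Cidea, Fabp4, Fabp5, Slc2a4, Dgat1, Dgat2, Gpd1, Adrb3, Scd1, Scd2 and Car3 had no match. Plin1 and Cfd are printed because they were among the genes furthest apart between libraries within reticular cells. Cd36 and Thrsp are printed because both fat and endothelial cells stood at least 2-fold above reticular cells for them in every library that held both types compared. Capitals mark the letters AGGTCA (a half-site of nuclear receptors such as PPARG) and CCAAT on either strand, and no capitals means that none of the 7 motifs searched was found. The windows lie at chr7:79732777-79733026 (minus strand) for Plin1, chr10:79890603-79890852 (plus strand) for Cfd, chr5:17835897-17836146 (minus strand) for Cd36 and chr7:97417551-97417800 (minus strand) for Thrsp.
Plin1: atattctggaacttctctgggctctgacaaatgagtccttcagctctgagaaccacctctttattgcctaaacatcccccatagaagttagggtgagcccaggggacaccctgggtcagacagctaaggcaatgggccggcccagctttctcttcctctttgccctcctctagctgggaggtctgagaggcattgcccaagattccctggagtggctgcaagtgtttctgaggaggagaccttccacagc
Cfd: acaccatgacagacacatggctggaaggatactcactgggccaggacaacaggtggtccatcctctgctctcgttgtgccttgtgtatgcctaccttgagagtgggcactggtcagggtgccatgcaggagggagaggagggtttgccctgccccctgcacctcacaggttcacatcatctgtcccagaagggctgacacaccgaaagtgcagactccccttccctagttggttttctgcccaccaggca
Cd36: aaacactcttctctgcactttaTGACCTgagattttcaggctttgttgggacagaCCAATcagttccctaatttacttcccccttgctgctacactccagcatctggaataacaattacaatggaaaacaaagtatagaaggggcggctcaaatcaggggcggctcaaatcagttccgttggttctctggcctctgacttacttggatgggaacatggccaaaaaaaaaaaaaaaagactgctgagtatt
Thrsp: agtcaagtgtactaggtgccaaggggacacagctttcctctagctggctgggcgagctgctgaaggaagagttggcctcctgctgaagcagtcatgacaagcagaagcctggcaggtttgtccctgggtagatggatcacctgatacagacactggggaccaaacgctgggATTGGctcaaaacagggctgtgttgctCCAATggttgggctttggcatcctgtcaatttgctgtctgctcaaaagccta
Over the 34 windows, AGGTCA stood in 23.5% against 14.0% of all 32851 mouse windows, with matches in Acly, Aqp7, Cd36, Elovl6, Gpam, Lpin1 and Plin2. CCAAT stood in 29.4% against 33.8%, CACGTG in 5.88% against 6.02%, CACCCCAC (a core of sterol response sites) in 5.88% against 2.58%, and TATAAA in 2.94% against 12.4%. A direct repeat of the half-site with 1 base between (DR1) was in 0 member windows and 0.338% of all, and TTGCGCAA in 0 and 0.164%. These are letter matches in short windows and say nothing about binding.

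Most of the 35 genes were far higher in fat cells than in reticular cells of the same library. The median gene was 6.52 log2 units higher in the fat cells of control (order-statistic 95% interval over genes 4.72 to 8.5), 5.48 units in those of naive (2.81 to 6.35), 5.87 units in those of exhausted (3.05 to 8.31) and 3.51 units in those of aged-injury (1.58 to 4.4). A gene counted as measured with at least 5 CPM in either cell type and at least 10 UMIs in the higher. Plin4, Cidec, Gpd1, Pck1, Lipe, Mgll, Thrsp and Retn stayed under 5 CPM in all reticular sets and were measured through fat cells only. The control fat gate held 78108 UMIs, so the 10 UMI rule left out genes only slightly higher in its fat cells. Gpam, at 12.8 against 12.5 CPM, was such a gene, so the control count and median lean to large ratios. At least 2-fold higher in fat cells were 30 of 30 measured genes in control, where 33.9% of all measured genes were, 32 of 34 for naive (15.9% of all genes), 31 of 32 for exhausted (13.2%) and 29 of 34 for aged-injury (10.3%), and none was 2-fold lower, where 21.3%, 25.1%, 22.9% and 8.61% of all genes were. Thinned to 3000 UMIs per cell, the median was 6.61 in naive and 6.25 in aged-injury, where 21 cells then passed the fat gate, and with 1 marker fewer in every gate it was 2.85 in control. All told, 27 of the 35 were at least 2-fold higher in each of the 4 libraries with fat cells, which held for 1.66% of all genes measured in any of them. The other 8 were Cidea, Gpam, Lpin1, Acly, Acaca, Fasn, Scd2 and Elovl6. Some of these were not measured in every library: Cidea in 0, Gpam and Elovl6 in 2, and Acly and Fasn in 3. Fasn was higher by 2.99-fold to 46.7-fold in all 3.

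**Figure D1:**
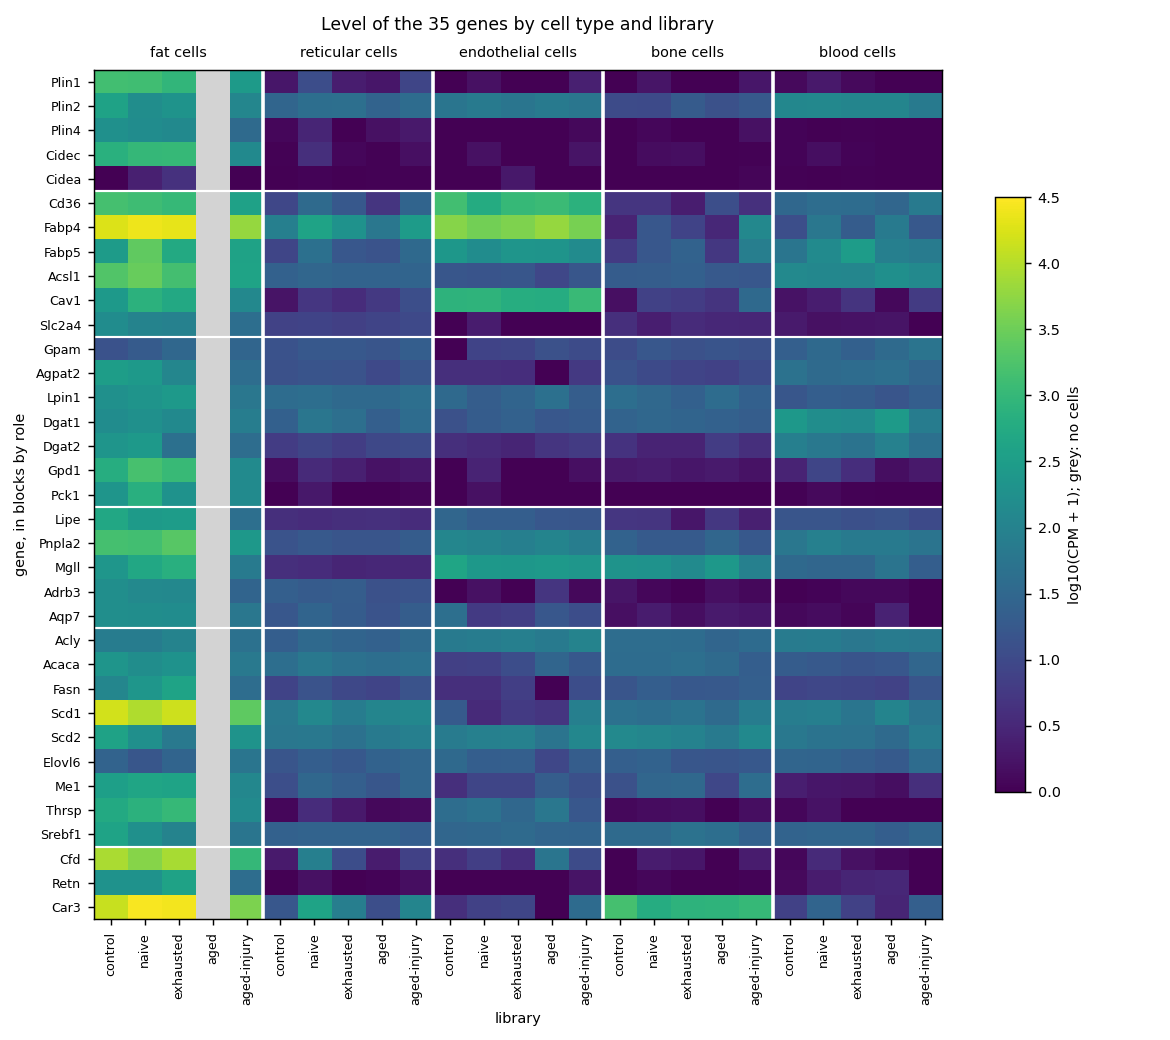
Colour gives log10(CPM + 1) of each of the 35 genes (rows, in blocks by role from the droplet coat at the top to secreted products at the bottom) in 5 cell types and 5 libraries (columns), with grey where a library had no fat cells. Most rows are brightest in the fat cells, Cd36, Fabp4, Cav1 and Mgll are also bright in endothelial cells, and Car3 is also bright in bone cells.

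Among the droplet coat genes, Plin1, Cidec and Plin4 were fat cell genes. Perilipin 1 (Plin1), which guards the droplet of fat cells against lipases, stood at 1357, 1317, 899 and 281 CPM in fat cells and at 0.858, 10.4, 1.34, 0.855 and 7.71 CPM in reticular cells. Cidec, which fuses small droplets into a large one, stood at 704, 1012, 1051 and 137 CPM in the 4 sets of fat cells and at no more than 3.05 CPM in any reticular or endothelial set. Plin4, another coat protein, stood at 179, 152, 135 and 35.4 CPM in fat cells and at up to 1.95 CPM in reticular cells. Perilipin 2 (Plin2), the coat protein of small droplets in most tissues, was not restricted in this way: it stood at 116 to 384 CPM in fat cells, 25.7 to 43.4 CPM in reticular cells, 54.3 to 71.9 CPM in endothelial cells and 67.2 to 124 CPM in blood cells. Cidea, the relative of Cidec in brown fat, was at 3.46 CPM or lower in all cell types of all libraries and is not measured in any comparison.

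Uptake and carrier genes were shared by fat and endothelial cells. Cd36, a fatty acid receptor of the cell surface, stood at 1472, 1253, 1019.5 and 368 CPM in fat cells. In endothelial cells it stood at 1385, 582, 1031, 1175 and 768 CPM in the 5 libraries, and in reticular cells at 4.03 to 35.3 CPM. Fat cells were thus 2-fold above endothelial cells in 1 library (naive, 2.15-fold) and 2-fold below in 1 (aged-injury). Fabp4, which carries fatty acids through the cytosol, stood at 18090.3, 24416, 21524 and 6151 CPM in fat cells, 3540.4 to 6219 CPM in endothelial cells and 59.0 to 405 CPM in reticular cells. Its relative Fabp5 ranged from 294 to 2490.3 CPM in fat cells and from 146 to 235 CPM in endothelial cells. Cav1, the coat protein of caveolae, was an endothelial gene by its ratio: its 607 to 1121 CPM were 99.2-fold to 1075-fold above the reticular cells of the same library, and fat cells had 126 to 779 CPM.

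The remaining pair of this group were fat cell genes. Acsl1, which joins fatty acids to coenzyme A, stood at 1869, 2835, 1427 and 400.5 CPM in fat cells against 24.1 to 30.0 CPM in reticular and 7.99 to 15.2 CPM in endothelial cells. Slc2a4, the glucose transporter that insulin moves to the surface, stood at 154, 103, 93.3 and 41.6 CPM in fat cells, at 6.24 to 8.67 CPM in reticular cells and at 0 to 1.19 CPM in endothelial cells.

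**Figure D2:**
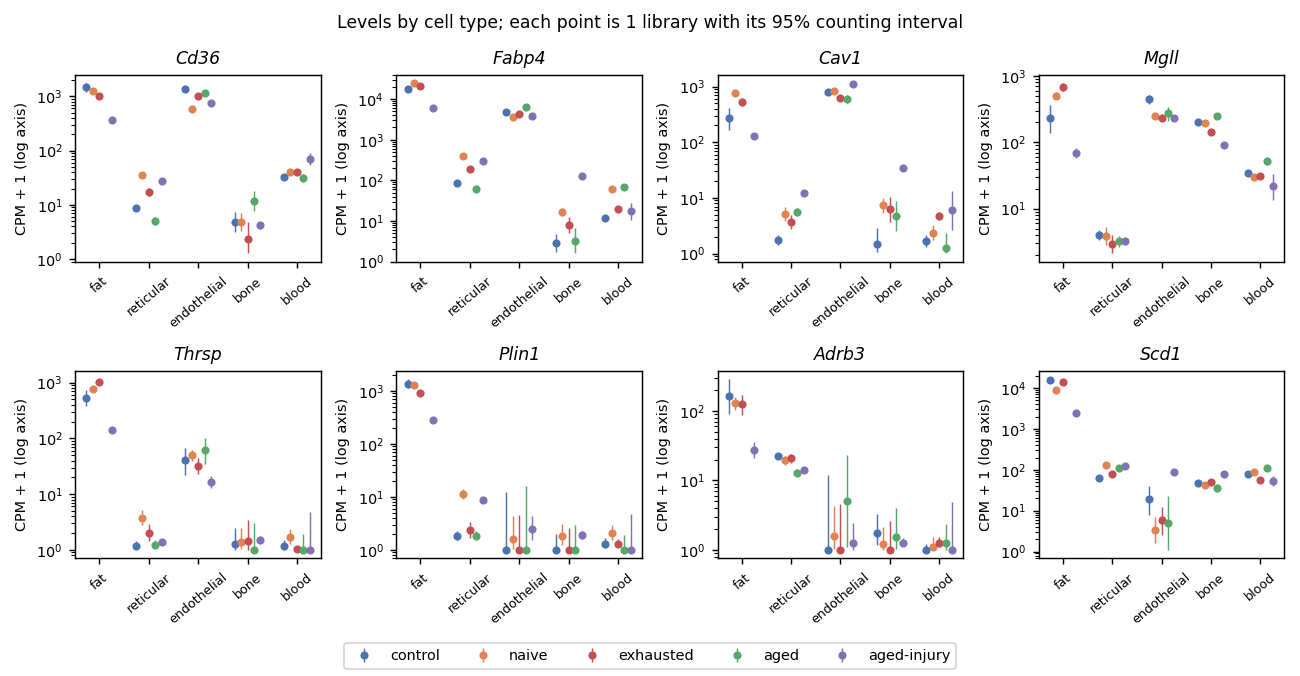
Each panel plots CPM + 1 on a log axis for 1 gene in 5 cell types, with 1 point per library and its 95% counting interval (aged has no fat cells). Cd36, Fabp4, Cav1, Mgll and Thrsp stand at least 2-fold above reticular cells in the endothelial cells of all 5 libraries, while Plin1 stays near 0 there and Adrb3 is lower there than in reticular cells.

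In the group that builds triglyceride, 2 genes that supply the glycerol backbone were nearly restricted to fat cells. Gpd1, which makes glycerol phosphate from glucose, stood at 627, 1554, 1075 and 139 CPM in fat cells and at 0.429 to 2.44 CPM in reticular cells. Pck1, which makes it from smaller precursors, stood at 218, 688, 197 and 141 CPM in fat cells and at up to 0.975 CPM in reticular cells, and it is not listed in the aged library. The enzymes of the next steps were wider spread. Agpat2, the second acyltransferase, stood at 40.1 to 320.1 CPM in fat and 8.68 to 14.1 CPM in reticular cells, and Lpin1, the phosphatase after it, at 60.9 to 273 against 32.9 to 43.7 CPM. Gpam, the first acyltransferase, was the exception, with 12.8 to 31.1 CPM in fat cells and 12.5 to 21.6 CPM in reticular cells. Dgat1 and Dgat2 add the last acyl chain. Dgat1 stood at 154, 178, 135 and 80.8 CPM in fat cells and at 253, 159.9, 149.7, 285 and 77.6 CPM in the blood cells of the 5 libraries, so blood cells carried as much of it. Dgat2 stood at 39.2 to 275 CPM in fat cells and 44.5 to 95.5 CPM in blood cells.

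Lipolysis genes were split between cell types. Pnpla2, which removes the first acyl chain, stood at 1459.5, 1372, 2132 and 246 CPM in fat cells, 79.2 to 115 CPM in endothelial cells and 13.5 to 19.4 CPM in reticular cells. Lipe, hormone-sensitive lipase, stood at 499, 287, 311 and 43.0 CPM in fat cells, 15.1 to 30.2 CPM in endothelial cells and 2.68 to 3.22 CPM in reticular cells. Mgll, the last lipase of the chain, stood at 230.5, 507, 681 and 68.0 CPM in fat cells, and its endothelial 233 to 446 CPM were 88.3-fold to 149-fold above the 1.89 to 3.0 CPM of reticular cells. The other 2 genes of the group were carried by reticular cells. Adrb3, the adrenergic receptor that starts lipolysis in fat cells, stood at 166, 129, 124 and 26.9 CPM in fat cells and at 21.7, 18.4, 19.8, 12.0 and 13.2 CPM in the reticular cells of the 5 libraries, against 0 to 3.997 CPM in endothelial and 0 to 0.267 CPM in blood cells. At 3000 UMIs per cell, Adrb3 was counted in 4.47%, 4.15%, 5.48%, 2.74% and 2.88% of reticular cells and in 0 to 0.242% of blood cells, and at full depth in 5.09 to 9.997% and in 0 to 0.308%. Aqp7, the channel through which glycerol leaves, stood at 59.5 to 166 CPM in fat cells and 12.9 to 26.7 CPM in reticular cells, and at 1.71 CPM or less in blood cells. In endothelial cells Aqp7 ranged from 4.75 to 42.2 CPM. Of 4 libraries in which it was measured, these stood at least 2-fold above reticular cells in 1 and below in 2.

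Genes of fatty acid synthesis differed in how far fat cells stood above reticular cells. Scd1, a desaturase, stood at 15402, 9104, 14208 and 2411 CPM in fat cells against 63.9 to 127 CPM in reticular cells. Thrsp, a nuclear protein of lipogenic tissues, stood at 538, 766, 1016 and 141 CPM in fat cells and at 0.195 to 2.80 CPM in reticular cells. Unlike Scd1, Thrsp also stood above reticular cells in endothelial cells, at 39.2, 48.7, 31.4, 59.9 and 15.3 CPM, with fat cells 9.20-fold to 32.3-fold higher still. It was counted in 8.70%, 9.17%, 10.3%, 16.7% and 5.44% of endothelial cells at 3000 UMIs per cell, against at most 0.114% of blood cells, and at full depth in 11.2 to 23.7% against at most 0.556%. The enzymes of the main chain were higher in fat cells by less: Acaca, which makes malonyl-CoA, stood at 63.8 to 218 against 40.4 to 63.5 CPM in reticular cells, Fasn, the synthase, at 40.1 to 401 against 7.14 to 13.4 CPM, and Me1, a source of NADPH, at 122 to 444 against 11.1 to 30.6 CPM. Srebf1, the regulator of this set, stood at 54.8 to 409.7 against 21.0 to 26.5 CPM, and Scd2, a relative of Scd1, at 65.7 to 397 against 46.0 to 87.1 CPM. Elovl6, which lengthens palmitate, did not reach 2-fold in either of the 2 libraries where it was measured in fat and reticular cells. Acly, which makes acetyl-CoA, stood at 45.8 to 100.2 CPM in fat cells and 66.4 to 101 CPM in endothelial cells, above the 21.4 to 35.05 CPM of reticular cells.

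Of the secreted and other products, Cfd, the serine protease adipsin, stood at 8347, 4777, 7994 and 988 CPM in fat cells, and Retn, resistin, at 192, 193, 391 and 39.2 CPM with at most 0.609 CPM in reticular cells. Car3, a carbonic anhydrase abundant in fat cells, stood at 13225, 28078, 26411 and 4072 CPM in fat cells and also at 614 to 1516 CPM in the gated bone cells of the 5 libraries. Bone cells are therefore a second place where Car3 was high, and a Car3 molecule was counted in 39.8 to 61.5% of them at 3000 UMIs per cell, against 0.484 to 9.57% of blood cells (47.1 to 64.7% and 1.58 to 17.3% at full depth).

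Endothelial cells shared a part of the fat cell set. Compared with reticular cells, 8 genes were at least 2-fold higher in the endothelial cells of all 5 libraries, which held for 6.15% of all measured genes: Cd36, Fabp4, Fabp5, Cav1, Pnpla2, Mgll, Acly and Thrsp. Of these, Acly was not at least 2-fold higher in fat than in reticular cells in all 4 libraries with fat cells. Lipe was measured in 4 libraries and was 5.63-fold to 9.67-fold higher in their endothelial cells. Adrb3 alone was at least 2-fold lower in all 5, and 6.53% of all measured genes were. Fat against endothelial cells had 24 genes at least 2-fold higher in all 4 libraries and none lower, against 2.54% and 6.0% of all measured genes. Reticular markers in the endothelial cells moved by library: their summed level was 1665, 1077, 788, 1886 and 1085 CPM, against 8994 to 11432 CPM in reticular cells, and their part in the endothelial values was not tested.

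Within reticular cells, the library taken after 1 ablation had higher levels of several of the genes at both ages. In naive against control the median of 25 measured genes was a log2 ratio of 0.65 (0.32 to 1.35), against 0.13 over all measured genes. Of the 25, 8 were at least 2-fold higher and 0 lower, while 3.66% of all measured genes were 2-fold higher and 2.06% lower (5.72% in either direction). The 8 were Cfd, Car3, Plin1, Fabp5, Fabp4, Cd36, Me1 and Dgat1, of which Cfd and Plin1 reached the 5 CPM minimum through the naive library only. The 10 genes below the minimum were Plin4, Cidec, Cidea, Cav1, Gpd1, Pck1, Lipe, Mgll, Thrsp and Retn. TMM scaling would lower each ratio of this comparison by 0.15 log2 units and left 8 genes at 2-fold. Bone markers in the reticular cells also differed by library, with summed levels of 4334, 2073, 2596, 5238 and 2053 CPM, lower in the libraries after ablation, and their part in these results was not tested.

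Cfd differed most, at 1.13 CPM in control and 87.1 CPM in naive reticular cells (77.0-fold, 95% interval 53.2 to 116), and in exhausted, aged and aged-injury it stood at 10.6, 1.18 and 6.30 CPM. Car3 stood at 15.4, 408, 83.3, 11.2 and 110.0 CPM in the 5 libraries, and its naive level was 26.4-fold that of control (23.8 to 29.4). Fabp4 followed the same order of libraries, at 85.7, 405, 192, 59.0 and 290.5 CPM, with naive 4.73-fold above control (4.48 to 4.99). In all 3 genes naive was highest, and control and aged were the lowest. Cd36 stood at 7.92, 35.3, 16.3, 4.03 and 26.8 CPM and Fabp5 at 7.88, 45.7, 15.9, 13.4 and 32.9 CPM (5.80-fold in naive against control, 4.87 to 6.92). Dgat1 stood at 22.7, 57.7, 42.3, 21.8 and 37.2 CPM, and Me1 at 11.1, 30.6, 21.9, 14.9 and 29.1 CPM. Dgat1 and Me1, an acyltransferase and an enzyme of lipogenesis, had no library in which a few cells held most of their UMIs.

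Shares of cells with a molecule were set beside those of blood cells, and stood above them for some genes only. At 3000 UMIs per cell, Fabp4 was counted in 11.2%, 20.2%, 19.8%, 5.93% and 22.2% of reticular cells, against 2.24%, 5.23%, 3.25%, 0.969% and 4.26% of blood cells. Me1 was counted in 3.32%, 6.71%, 6.18%, 4.03% and 7.16%, against at most 1.06% of blood cells. Both were above the blood share in every library. Car3 was counted in 1.43%, 7.82%, 3.44%, 0.887% and 7.14% of reticular cells and in 1.90%, 3.30%, 1.67%, 0.484% and 9.57% of blood cells. Its reticular share was thus not above the blood share in control and aged-injury, and the blood share of aged-injury rests on 94 cells. Cd36 was counted in 0.532 to 3.81% of reticular cells, below the 3.15 to 9.57% of blood cells in all 5 libraries. Blood cells carried Cd36 themselves, at 30.1 to 69.3 CPM, so their share is no measure of background for it. At full depth the reticular shares were 9.49 to 33.1% for Fabp4, 6.91 to 17.9% for Me1, 1.48 to 11.9% for Car3 and 0.970 to 8.03% for Cd36.

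For the genes that differed most, few reticular cells held most of the UMIs. The 1% of reticular cells highest for a gene held 96.2% of the Cfd UMIs in naive and 87.3% in aged-injury, and 1 cell held 35.8% and 55.6% of them. For Plin1 the share was 85.9% in naive and 82.2% in aged-injury, and for Car3 it was 64.3% to 93.8% over the 5 libraries. Fabp4 was spread more, at 28.4 to 57.4%, and Dgat1 at 15.5 to 19.2%. A gene with few UMIs gives a high share even when spread at random, so low genes cannot be compared with high ones on this measure. Scd1 is the clearest contrast within a gene: its shares were 15.6%, 52.0%, 20.8%, 18.8% and 30.1% in the 5 libraries, with naive apart.

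**Figure D3:**
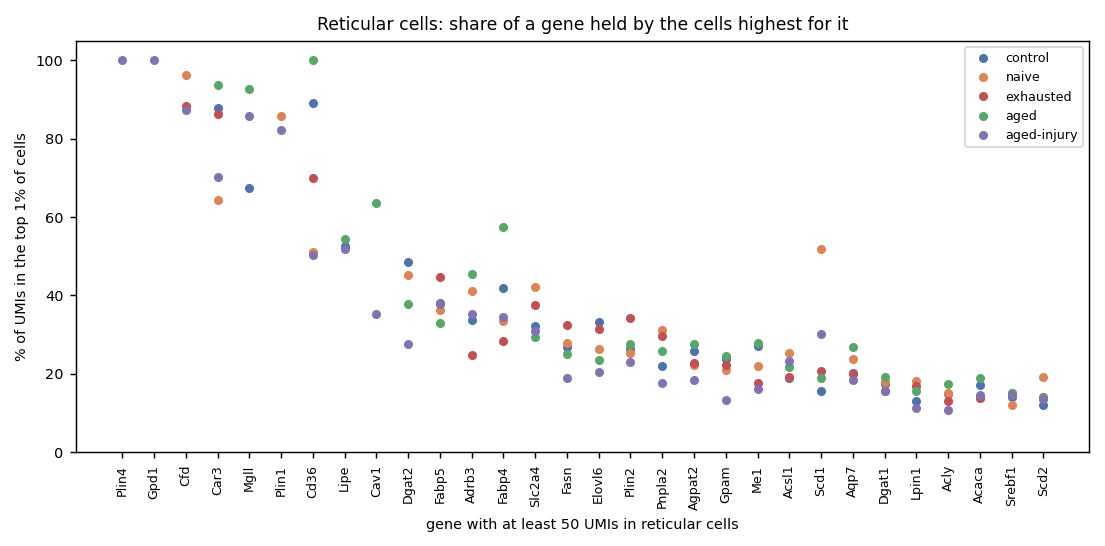
For each gene with at least 50 UMIs in the reticular cells of a library, the point gives the percentage of those UMIs held by the 1% of cells highest for that gene. Cfd, Car3 and Plin1 lie above 60% in every library shown, and Scd2, Srebf1, Acaca, Acly, Lpin1 and Dgat1 lie under 20%.

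Leaving out reticular cells with any fat marker gave a list median of 0.29 (0.13 to 0.63) for naive against control and a count of 6 of 23, namely Car3, Cd36, Fabp4, Fabp5, Me1 and Dgat1. Cfd then stood at 0.774 CPM in control and 4.92 CPM in naive, a log2 ratio of 2.67 in place of 6.27. Scd1 stood at 57.0 CPM in control and 62.9 CPM in naive in place of 63.9 and 127 CPM. Car3 had a log2 ratio of 5.68 in place of 4.72, with its control level at 3.05 in place of 15.4 CPM and its naive level at 157 in place of 408 CPM. With wider gates the median was 0.56 and 8 of 27 were 2-fold higher, and the log2 ratios were 4.87 for Cfd, 2.29 for Car3 and 1.56 for Fabp4. Summed fat markers in the reticular cells were 34.99, 54.6, 49.7, 41.1 and 47.7 CPM in the 5 libraries, with 9 to 10 of the 11 detected, and their part in the result beyond these values was not tested.

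By role, the uptake group held 3 of 5 measured genes at 2-fold or more in naive against control reticular cells with a median of 2.16, and both measured secreted or other products (Cfd and Car3) were. The synthesis group had a median of 0.65 with 1 of 8 at 2-fold, Me1. Acaca stood at 40.4 CPM in control and 63.5 CPM in naive, Fasn at 7.14 and 13.2 CPM, and Scd1 at 63.9 and 127 CPM. Triglyceride assembly had a median of 0.37 with 1 of 5 at 2-fold, Dgat1, and lipolysis 0.32 with 0 of 3. Adrb3 stood at 21.7 CPM in control and 18.4 CPM in naive.

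**Figure D4:**
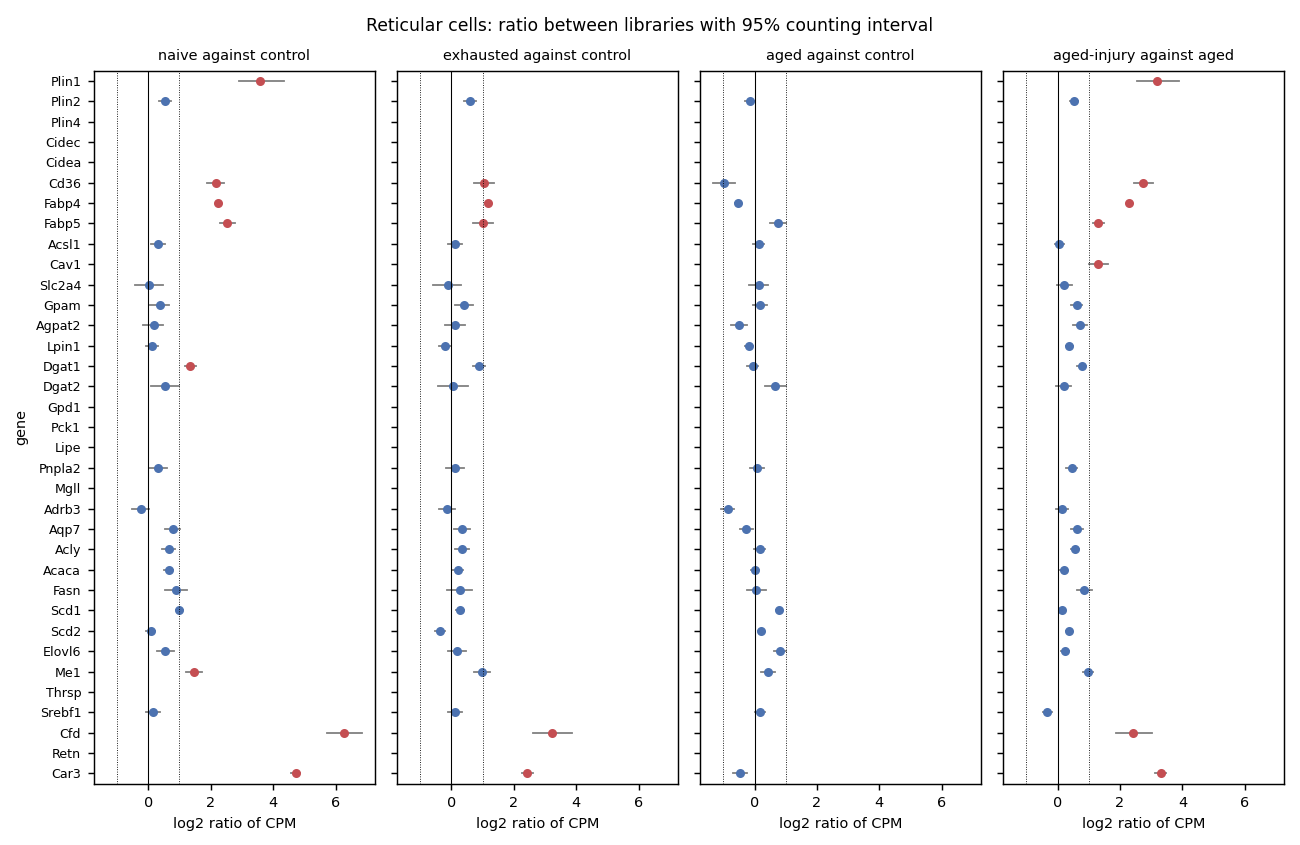
Points give the log2 ratio of CPM between libraries in reticular cells for each measured gene, lines its 95% counting interval, and red marks at least 2-fold with dotted lines at 2-fold. Naive against control and aged-injury against aged show Plin1, Cd36, Fabp4, Fabp5, Cfd and Car3 past the line, while no gene passes it in aged against control.

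In aged mice the library made 1 week after ablation, against 2 weeks in naive, also stood above the uninjured one for many of the same genes. The median of 26 measured genes was 0.58 (0.23 to 0.96) against 0.13 over all genes. At least 2-fold higher were 7 (Car3, Plin1, Cd36, Cfd, Fabp4, Fabp5 and Cav1) against 3.34% of all genes, and 0 were lower against 1.72% (5.05% of all genes in either direction). Plin1, Cd36, Cfd and Cav1 reached the minimum through aged-injury only. Car3 was 9.82-fold higher (8.70 to 11.1), Plin1 9.02-fold (5.82 to 14.7), Cd36 6.66-fold (5.43 to 8.25), Cfd 5.34-fold (3.65 to 8.10) and Fabp4 4.92-fold (4.67 to 5.2). Srebf1 was the only gene lower with an interval that left out 1 and at least 50 UMIs, at 26.5 CPM in aged and 21.0 CPM in aged-injury. Without reticular cells that held a fat marker 4 of 24 were 2-fold higher, namely Car3, Cd36, Fabp4 and Cav1, and Fabp5 had a log2 ratio of 0.51 in place of 1.30. Aged-injury had the deepest reticular cells, with a median of 8174 UMIs against 5694 in aged, and at 3000 UMIs per cell the median was 0.56 with 7 genes at 2-fold.

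After a repeated ablation the genes at least 2-fold higher in naive than in control stood between those libraries. Others did not: exhausted had the lowest Scd2 and Lpin1 of all 5 reticular sets, at 46.0 and 32.9 CPM, and the highest Plin2, at 43.4 CPM. Against control, Scd2 had a log2 ratio of -0.35 and Lpin1 of -0.22 (0.042 at 3000 UMIs per cell). Exhausted against control had a median of 0.28 (0.12 to 0.90) over 24 genes against 0.06 over all genes, with 5 at least 2-fold higher (1.33% of all genes) and 0 lower (1.27%; 2.6% in either direction). The 5 were Cfd at 9.36-fold (6.12 to 14.7), Car3 at 5.39-fold (4.77 to 6.11), Fabp4 at 2.24-fold (2.11 to 2.39), Cd36 at 2.05-fold (1.65 to 2.55) and Fabp5 at 2.02-fold (1.62 to 2.52), and TMM scaling left 3 of them past 2-fold, as did wider gates. Cfd reached the minimum through exhausted only, at 10.6 against 1.13 CPM. Cd36 had a log2 ratio of -0.77 with 1 marker fewer in every gate and 0.99 with TMM scaling, in place of 1.04. With wider gates the log2 ratios were 0.76 in place of 2.43 for Car3 and 0.94 in place of 1.17 for Fabp4. Exhausted against naive had a median of -0.45 (-0.62 to -0.20) over 25 genes against -0.07 over all genes, with 0 higher (0.7% of all genes) and 6 lower (1.81%; 2.51% in either direction). Cfd was 8.23-fold lower (6.64 to 10.3), Plin1 7.75-fold (4.21 to 15.6), Car3 4.90-fold (4.52 to 5.31), Fabp5 2.87-fold (2.36 to 3.5) and Cd36 2.17-fold (1.78 to 2.67). The sixth was Fabp4. Plin1 reached the minimum through naive only, at 10.4 against 1.34 CPM. Without reticular cells that held a fat marker the median was -0.17 and 3 of 23 genes were 2-fold lower. The log2 ratio was then 0.0068 for Plin1, -0.75 in place of -3.04 for Cfd and -0.86 in place of -1.52 for Fabp5. With 1 marker more in every gate 2 genes were 2-fold lower, with log2 ratios of -0.29 for Cfd, -0.90 for Car3 and -0.67 for Cd36. With wider gates Fabp5 and Cd36 were at -0.86 and -0.77. The comparisons with control share the control library, and both with naive share the naive library.

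The uninjured aged and control libraries showed small differences in reticular cells. In aged against control the median of 23 measured genes was 0.07 (-0.18 to 0.17) against -0.04 over all genes, and 0 were 2-fold apart in either direction, while 0.929% of all genes were higher and 0.909% lower (1.84% in either direction); 2 were at 3000 UMIs per cell and with wider gates. Among the genes higher in aged, furthest apart were Elovl6 and Scd1, both enzymes that modify new fatty acids. Elovl6 stood at 25.1 CPM in aged and 14.2 CPM in control (1.76-fold, 1.55 to 2.01), and Scd1 at 110.3 and 63.9 CPM (1.73-fold, 1.62 to 1.84). Fabp5 was 1.70-fold higher (1.42 to 2.03) and Dgat2 1.59-fold (1.27 to 1.99). In the other direction, Cd36 was 1.96-fold lower (1.54 to 2.52), Adrb3 1.81-fold (1.57 to 2.09), Fabp4 1.45-fold (1.36 to 1.55) and Car3 1.38-fold (1.18 to 1.61). Fabp4 turned to a log2 ratio of 0.22 with 1 marker fewer in every gate. Adrb3 kept its direction under all 10 alternatives run for it, with log2 ratios from -1.10 to -0.08, the last with 1 marker fewer in every gate. Scd1 kept its direction too, from 0.64 to 0.84.

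Fat cells themselves were compared only among the 15-week libraries. In naive against control 33 genes were measured with a median log2 ratio of 0.01 (-0.24 to 0.51) against 0.34 over all genes. At least 2-fold higher were 7 against 19.8% of all genes, and 3 were lower against 8.53% (28.4% in either direction). Fabp5 was furthest apart, at 294 CPM in control and 2490.3 CPM in naive (8.46-fold, 5.62 to 13.4), and 1 of the 6 control cells held 87.0% of its UMIs there. Pck1 was 3.16-fold higher (1.95 to 5.48), Cav1 2.90-fold (1.88 to 4.72) and Gpd1 2.48-fold (1.86 to 3.37). Plin2 was 2.45-fold lower (1.58 to 3.72), Scd2 2.25-fold (1.46 to 3.37) and Srebf1 2.25-fold (1.47 to 3.34). With 6 control cells these values rest on few cells: 1 cell held 64.2% of the Plin1 UMIs and 56.1% of the Cfd UMIs there, and Plin2 had a log2 ratio of 0.78 instead of -1.30 when the 5% of cells with most UMIs were left out. With 1 marker fewer in every gate the list median was 3.52, and Plin2, Scd2 and Srebf1 turned to 1.64, 1.82 and 0.71. Srebf1 was at 0.58 and Cav1 at -0.08 with the stricter cell filter (at least 1000 genes and 2000 UMIs per cell).

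Exhausted against control fat cells had a median of -0.11 (-0.42 to 0.58) over 32 genes against 0.43 over all genes, with 3 higher (24.9% of all genes) and 4 lower (5.61%; 30.5% in either direction). Fasn was 3.48-fold higher (1.77 to 7.80), Mgll 2.95-fold (1.82 to 5.09) and Retn 2.03-fold (1.18 to 3.75). The 4 lower at 2-fold each had under 50 UMIs in either library and are named after their values were seen: Agpat2, Dgat2, Scd2 and Srebf1, with log2 ratios of -1.49, -2.28, -2.60 and -1.98. Agpat2 and Dgat2 turned to 2.05 and 2.41 with 1 marker fewer in every gate. Plin2, Lipe and Plin1 were 1.85-fold (1.15 to 2.92), 1.61-fold (1.07 to 2.36) and 1.51-fold (1.19 to 1.90) lower. The control cells bear on these as well, since Mgll had a log2 ratio of -0.02 and Fasn of 0.47 in place of 1.56 and 1.80 without the 5% of cells with most UMIs. Plin2 was then at 0.90, and at 0.81 with the stricter cell filter. Plin2, Lipe and Plin1 were at 2.65, 5.39 and 3.05 with 1 marker fewer in every gate.

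Exhausted against naive rests on 21 and 56 fat cells. The median was -0.09 (-0.53 to 0.37) over 32 genes against -0.15 over all genes, with 1 higher (7.0% of all genes), Retn, and 5 lower (12.7%; 19.7% in either direction). The 5 were Dgat2 at 6.12-fold (3.49 to 11.7), Fabp5 at 4.59-fold (3.89 to 5.44), Pck1 at 3.49-fold (2.65 to 4.69), Scd2 at 2.68-fold (1.64 to 4.62) and Agpat2 at 2.33-fold (1.60 to 3.49). Dgat2, Fabp5 and Pck1 stayed at least 2-fold lower under all 9 alternatives run for them, with log2 ratios from -2.71 to -1.06 for Dgat2, from -2.22 to -1.11 for Fabp5 and from -4.18 to -1.18 for Pck1. Scd2 turned to 0.87 at 3000 UMIs per cell. Retn stood at 193 CPM in naive and 391 CPM in exhausted. Scd1, Cfd and Pnpla2 were 1.56-fold (1.5 to 1.62), 1.67-fold (1.59 to 1.77) and 1.55-fold (1.40 to 1.72) higher in exhausted, and all 3 had a negative log2 ratio without the 5% of cells with most UMIs, at -0.56, -1.73 and -0.48.

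In endothelial cells Cd36, Fabp4 and Fabp5 stood lower in the library after 1 ablation than in the uninjured library at both ages. Cd36 stood at 1385 CPM in control and 582 CPM in naive (2.38-fold lower, 2.12 to 2.66), and at 1175 CPM in aged and 768 CPM in aged-injury (1.53-fold lower, 1.35 to 1.73). Fabp4 was 1.37-fold lower in naive against control (1.30 to 1.45) and 1.65-fold lower in aged-injury against aged (1.56 to 1.74). Fabp5 was 1.51-fold (1.16 to 1.95) and 1.45-fold (1.08 to 1.93) lower. Exhausted endothelial cells, at 1031 CPM of Cd36, stood between control and naive, 1.34-fold below control (1.2 to 1.5) and 1.77-fold above naive (1.62 to 1.93). Cd36 was lower in naive than in control under all 8 alternatives, from -1.42 to -0.93 in log2 ratio, and lower in aged-injury than in aged under all 8, from -0.83 to -0.22. Fabp5 in aged-injury against aged had a log2 ratio of 0.13 at 3000 UMIs per cell. These rest on 40 control and 38 aged cells.

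Over all genes measured in endothelial cells, naive against control had 21 measured members, with 2 at least 2-fold higher (16.3% of all genes) and 2 lower (5.4%; 21.7% in either direction). The higher were Me1 and Car3, both under 10 CPM, and the lower were Cd36 and Aqp7, which stood at 42.2 CPM in control on 14 UMIs and at 4.75 CPM in naive. Mgll was 1.80-fold lower (1.49 to 2.18) in naive and 1.90-fold lower (1.54 to 2.34) in exhausted than in control, and 1.64-fold lower (1.22 to 2.22) in aged than in control. Exhausted against control had 18 measured members with 0 higher (16.5%) and 1 lower (6.12%; 22.6% in either direction), again Aqp7, and exhausted against naive 19 with 0 (4.39%) and 1 (6.11%; 10.5% in either direction), Cfd at 2.86 against 5.94 CPM. Aged against control had 16 with 1 higher (6.74%), Cfd at 56.0 against 3.02 CPM, and 2 lower (11.3%; 18.0% in either direction), Aqp7 and Elovl6. For Cfd, 3.02 CPM was 1 UMI among the 331523 UMIs of 40 control cells. The aged value rests on 250214 UMIs in 38 cells. In aged-injury against aged, 4 of 19 were higher (18.2%) and 3 lower (6.28%; 24.5% in either direction). Thrsp stood at 59.9 CPM in aged and 15.3 CPM in aged-injury (3.91-fold lower, 2.06 to 6.96), while Cav1 stood at 607 and 1121 CPM (1.85-fold higher, 1.57 to 2.18) and Scd2 at 52.0 and 120.5 CPM (2.32-fold higher, 1.34 to 4.39). Scd1 was at 1 UMI in aged and 86.8 CPM in aged-injury (21.7-fold, 3.87 to 860.1), and 1 cell held 71.3% of its UMIs in aged-injury. Car3, at 0 UMIs in aged and 35.7 CPM in aged-injury, was at least 2.98-fold higher against a floor of 3 counts, 1 cell held 60.6% of its UMIs, and its log2 ratio was -0.30 with 1 marker fewer in every gate.

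Where the UMIs of a gene lay differed by role. The fat gate, which held 0.0872%, 1.31%, 0.476% and 0.957% of all UMIs in the 4 libraries, held 79.1%, 48.0%, 89.0% and 52.3% of the Cfd UMIs and 71.4%, 53.5%, 92.7% and 62.6% of the Cidec UMIs. For Thrsp these shares were 47.2%, 46.5%, 78.2% and 48.3%. Endothelial cells held 57.8%, 46.5%, 52.1%, 25.8% and 31.6% of the Cav1 UMIs in the 5 libraries, and 0.370%, 3.35%, 1.73%, 0.437% and 1.80% of all UMIs. Adrb3 and Aqp7 lay with the reticular cells: with wider gates, which take in most cells set aside as mixed, these held 57.1 to 96.8% of the Adrb3 UMIs and 64.0 to 95.3% of the Aqp7 UMIs. That gate took 6315 of 9253, 2547 of 5242, 2263 of 6277, 5929 of 7560 and 12746 of 19497 kept cells. Its shares of a gene are to be read against these numbers. Blood cells held 63.1% and 65.4% of the Dgat1 and Dgat2 UMIs in control and 77.0% and 85.3% in exhausted. Of all UMIs they held 18.8% in control and 49.3% in exhausted. For Cd36, cells that passed no list held 47.8% in control and 57.9% in aged, so that a large part of its UMIs has no cell type here.

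**Figure D5:**
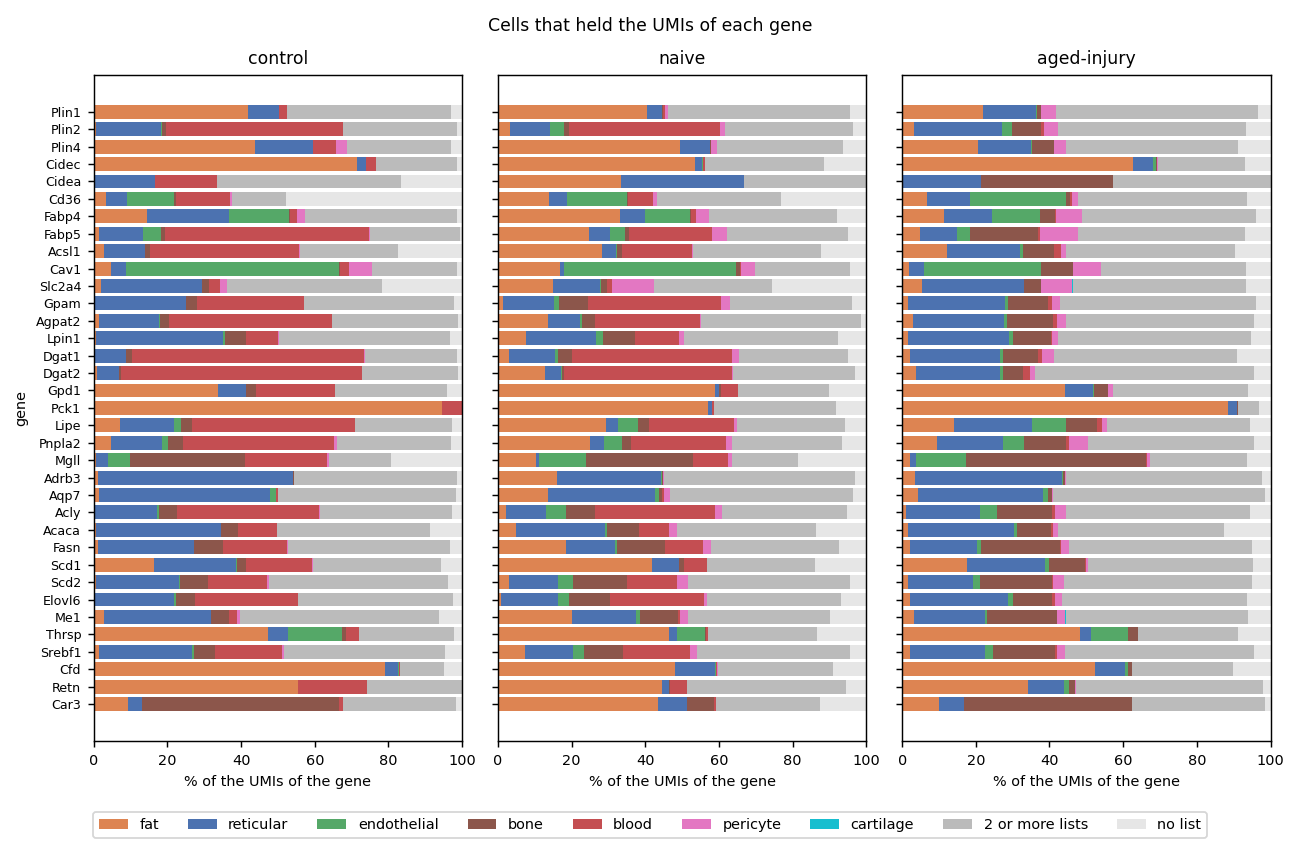
Bars give, for control, naive and aged-injury, the percentage of the UMIs of each gene that lay in the cells of each type, in cells that passed 2 or more lists, and in cells that passed none. In the 3 libraries drawn, Cfd, Cidec and Pck1 have their longest bar segment in fat cells. Dgat1 and Dgat2 have it in blood cells and Cav1 in endothelial cells in control and naive, and Car3 has it in bone cells in control and aged-injury.

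Other genes of the same pathways were followed as lists that hold none of the 35. Of 29 further genes of droplets, triglyceride and fatty acid metabolism, 9 of 15, 10 of 23, 12 of 22 and 7 of 23 measured in the 4 libraries were at least 2-fold higher in fat than in reticular cells (33.9%, 15.9%, 13.2% and 10.3% of all measured genes), with 1, 7, 3 and 0 lower (21.3%, 25.1%, 22.9% and 8.61%). Gpat3, an acyltransferase of glycerol phosphate, was higher by log2 ratios of 6.95, 6.24, 4.02 and 2.31. Of 13 sterol synthesis genes 1 of 3, 4 of 9, 2 of 5 and 1 of 12 were higher and 0, 2, 0 and 0 lower, to be read against the same shares of all genes. Within reticular cells, naive against control had 1 of 21 of the further fat genes higher (3.66% of all genes) and 1 lower (2.06%). Hilpda, which inhibits triglyceride breakdown, stood at 33.5 CPM in naive against 13.3 CPM in control, and G0s2, another inhibitor of it, at 20.4 against 52.5 CPM. In aged against control, where 0.929% of all genes were 2-fold higher, Hilpda alone of 21 was, at 37.9 CPM, and of 12 sterol genes Sqle (2.25-fold, 1.85 to 2.74) and Idi1 (2.07-fold, 1.73 to 2.49) were. Sqle and Idi1 were also the 2 of 10 sterol genes that were 2-fold lower in exhausted than in naive (1.81% of all genes), at 4.79 against 11.5 CPM and 3.90 against 8.89 CPM, and none was higher.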

How the data were processed

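Single-cell libraries of sorted tdTomato-positive femur cells were analysed, 1 per group. The deposited tables hold whole-number UMI counts per gene and cell, 26484 to 27845 genes per library, and the submitters' processing notes name GRCm39 and Seurat 5.1. The aligner, the counting and the cell calling were not given in the sources used here. The counts were used as deposited by the authors, with 62179497 UMIs in aged, 58895655 in naive, 68170277 in exhausted, 95397522 in control and 224155538 in aged-injury.

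Cells with at least 500 genes, 1000 UMIs and under 25% mitochondrial UMIs were kept. Gates took fat cells first, and a cell that passed another list beside fat or reticular, or more than 1 other list, was left out. No doublet caller was run, and leaving out the 5% of cells with most UMIs is an alternative. For each gate and library UMIs were summed and divided by the gate's total. Ratios carry the exact conditional binomial 95% interval, cell shares the exact Clopper-Pearson interval, and a count of 0 the limit that 3 counts set. Intervals cover counting error only. With 1 library per group no test was possible and none was run. Shares of cells at equal depth come from cells thinned to 3000 UMIs and gated on the thinned counts, with shallower cells left out (8660, 4515, 5309, 6137 and 16827 cells remained in the 5 libraries). edgeR (TMM) and DESeq2 served for scaling factors only.

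The genes named in each comparison were up to 5 measured members furthest apart in each direction with at least 50 UMIs in the higher library and a ratio whose interval excluded 1, and members past 2-fold outside that rule were named after their values were seen. The members, lists and gates were chosen with earlier results of these data known. The wide gates were chosen after seeing the data. The calculations were tested on simulated data. Software was Python 3.11.15, numpy 2.4.6, scipy 1.17.1, pandas 2.3.3, matplotlib 3.10.9, R 4.3.3, edgeR 4.0.16 and DESeq2 1.42.0.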

Additional observations from a re-analysis of the deposited data

How the results depend on the processing

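Of 450 alternative values for list medians, counts of genes 2-fold apart, fat cell shares and UMI shares, 353 stayed within the main value's interval, or within 1.5 times a count, 97 moved further and 0 reversed. Counts and shares could not be called reversed, and a list median between libraries could only where its interval left out 0. The fat cell median of exhausted against control changed sign with 1 marker fewer in every gate, to 3.49, and counts as moved. The 0 is therefore no measure of stability. Of 2847 for single genes, 2140 stayed, 650 moved and 57 reversed, 48 of these in fat cells; reversed means a change of sign where the interval left out 1 and the gene was named by the rule or 2-fold apart. Each reversed value follows. With 1 marker fewer in every gate, these log2 ratios were Plin2 1.64, Lipe 4.74, Scd2 1.82, Srebf1 0.71 and Cfd 3.65 in naive against control (fat), Plin1 3.05, Plin2 2.65, Cd36 1.21, Acsl1 4.71, Agpat2 2.05, Dgat2 2.41 and Lipe 5.39 in exhausted against control (fat), Cfd -0.15 in exhausted against naive (fat), Cd36 -0.77 in exhausted against control (reticular), Fabp4 0.22 in aged against control (reticular), Cav1 0.16 in exhausted against control (endothelial), Cav1 0.0030 in exhausted against naive (endothelial) and Lpin1 1.5 and Car3 -0.30 in aged-injury against aged (endothelial). With at least 1000 genes, 2000 UMIs and under 10% mitochondrial UMIs per cell, these log2 ratios were Cav1 -0.076, Mgll -0.37, Fasn -0.28, Srebf1 0.58 and Car3 -0.37 in naive against control (fat) and Plin2 0.81, Acsl1 0.032, Cav1 -0.57, Mgll -0.059 and Car3 -0.65 in exhausted against control (fat). Without the 5% of cells with most UMIs, these log2 ratios were Plin2 0.78 in naive against control (fat), Plin2 0.90, Acsl1 0.38, Cav1 -0.57, Agpat2 0.52, Mgll -0.023 and Car3 -0.22 in exhausted against control (fat) and Pnpla2 -0.48, Fasn -0.22, Scd1 -0.56 and Cfd -1.73 in exhausted against naive (fat). With every cell thinned to 3000 UMIs, these log2 ratios were Mgll -0.22 in naive against control (fat), Acsl1 1.42 and Lipe 0.42 in exhausted against control (fat), Scd2 0.87 in exhausted against naive (fat), Lpin1 0.042 in exhausted against control (reticular) and Fabp5 0.13 in aged-injury against aged (endothelial). With 1 marker more in every gate, these log2 ratios were Plin1 0.24, Cd36 0.17 and Acsl1 0.29 in exhausted against control (fat). With the mean of per-cell CPM, these log2 ratios were Acsl1 0.087, Cav1 -0.23 and Agpat2 0.17 in exhausted against control (fat) and Scd1 -0.35 and Cfd -0.83 in exhausted against naive (fat). With the wide gates, these log2 ratios were Acsl1 0.13 and Lipe 0.11 in exhausted against control (fat). Without reticular cells that held a fat marker, these log2 ratios were Plin1 0.0068 in exhausted against naive (reticular). The moved values of the lists, cell shares and UMI shares follow, where the median gene is the median over the 35 genes and 2-fold apart counts both directions; beyond the alternative's own construction, the cause was not tested. With 1 marker fewer in every gate, the list medians (log2) were 3.52 in naive against control and 3.49 in exhausted against control (fat cells). The counts of genes 2-fold apart were 28 in naive against control and 27 in exhausted against control (fat cells), 1 in aged against control (reticular cells) and 2 in exhausted against control, 2 in exhausted against naive and 4 in aged-injury against aged (endothelial cells). The fat cell shares were 0.173% for control, 1.43% for naive and 0.159% for aged. The fat against reticular list median (log2) was 2.85 for control. Fat cells held, of the UMIs of the median gene, 0.247% for control, 11.7% for naive, 0.232% for aged and 1.97% for aged-injury, and reticular cells held, of the UMIs of the median gene, 3.69% for control, 2.45% for naive, 2.11% for exhausted, 6.47% for aged and 4.08% for aged-injury, and endothelial cells held, of the UMIs of the median gene, 0.326% for aged-injury. With at least 1000 genes, 2000 UMIs and under 10% mitochondrial UMIs per cell, the list median (log2) was -0.30 in naive against control (fat cells). The counts of genes 2-fold apart were 2 in aged against control (reticular cells) and 3 in exhausted against control, 0 in exhausted against naive and 1 in aged against control (endothelial cells). Fat cells held, of the UMIs of the median gene, 1.23% for control. With every cell thinned to 3000 UMIs, the list medians (log2) were 0.67 in naive against control and 0.90 in exhausted against control (fat cells) and 0.36 in naive against control and -0.45 in exhausted against naive (endothelial cells). The counts of genes 2-fold apart were 6 in naive against control (fat cells), 3 in exhausted against naive and 2 in aged against control (reticular cells) and 2 in naive against control, 3 in exhausted against naive and 1 in aged against control (endothelial cells). The fat cell shares were 0.709% for naive, 0.132% for exhausted and 0.125% for aged-injury. The fat against reticular list medians (log2) were 6.61 for naive and 6.25 for aged-injury. Fat cells held, of the UMIs of the median gene, 0.921% for control, 11.7% for naive and 2.8% for exhausted, and reticular cells held, of the UMIs of the median gene, 33.3% for control, 14.6% for exhausted, 56.8% for aged and 46.8% for aged-injury. With TMM scaling, the counts of genes 2-fold apart were 11 in exhausted against control (fat cells) and 3 in exhausted against control (reticular cells). With 1 marker more in every gate, the list median (log2) was 0.58 in exhausted against control (fat cells). The counts of genes 2-fold apart were 15 in exhausted against control and 11 in exhausted against naive (fat cells), 2 in exhausted against naive and 1 in aged against control (reticular cells) and 2 in exhausted against control and 0 in exhausted against naive (endothelial cells). The fat cell shares were 0.112% for exhausted and 0.282% for aged-injury. Reticular cells held, of the UMIs of the median gene, 24.4% for control, 51.3% for aged and 34.1% for aged-injury. With the mean of per-cell CPM, the counts of genes 2-fold apart were 14 in exhausted against control (fat cells) and 2 in exhausted against control and 0 in exhausted against naive (endothelial cells). Without the 5% of cells with most UMIs, the list median (log2) was -0.56 in exhausted against naive (fat cells). The counts of genes 2-fold apart were 1 in aged against control (reticular cells) and 0 in exhausted against naive (endothelial cells). Fat cells held, of the UMIs of the median gene, 1.18% for control, and reticular cells held, of the UMIs of the median gene, 22.5% for control and 23.1% for aged-injury. With no CPM minimum, the counts of genes 2-fold apart were 13 in naive against control and 2 in aged against control (reticular cells). Without reticular cells that held a fat marker, the list medians (log2) were 0.29 in naive against control and -0.17 in exhausted against naive (reticular cells). The counts of genes 2-fold apart were 3 in exhausted against naive, 1 in aged against control and 4 in aged-injury against aged (reticular cells). Reticular cells held, of the UMIs of the median gene, 2.52% for naive and 11.6% for aged-injury. With a minimum of 20 CPM, the counts of genes 2-fold apart were 2 in exhausted against control and 4 in aged-injury against aged (reticular cells) and 2 in naive against control and 0 in exhausted against naive (endothelial cells). With the wide gates, the counts of genes 2-fold apart were 3 in exhausted against control and 2 in aged against control (reticular cells). The fat cell shares were 1.56% for naive, 0.0529% for aged and 1.44% for aged-injury. Reticular cells held, of the UMIs of the median gene, 33.0% for control, 12.6% for naive, 64.2% for aged and 50% for aged-injury, and fat cells held, of the UMIs of the median gene, 0.24% for aged and 12.3% for aged-injury. No paired analysis was possible because each group is 1 library, and leaving out a replicate was not possible for the same reason. Depth limits the fat cells of control, with 78108 UMIs in 6 cells, those of exhausted, with 289354 UMIs in 21 cells, and the endothelial cells of control and aged, with 331523 and 250214 UMIs.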

Other observations

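Outside fat, reticular and endothelial cells, bone and blood cells carried a few of the 35 genes. In gated bone cells, Mgll, the last lipase of triglyceride breakdown, stood at 201, 192, 141, 248 and 90.1 CPM in the 5 libraries, against 1.89 to 3.0 CPM in reticular cells. Bone cells held 31.3%, 29.1%, 11.4%, 31.5% and 48.8% of all Mgll UMIs of these libraries, and 4.34%, 9.77%, 3.74%, 3.23% and 16.7% of the UMIs of all genes. Fabp4 and Fabp5, carriers of fatty acids, stood apart in the bone cells of aged-injury: Fabp4 at 1.80, 15.5, 7.04, 2.16 and 126 CPM and Fabp5 at 4.89, 15.9, 25.1, 4.33 and 83.6 CPM. Cav1, the caveolar coat gene, had the same order at its top, with 33.7 CPM in aged-injury and at most 6.31 CPM in the other libraries.

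In gated blood cells, present in every library, Acsl1 stood at 132, 119, 113, 174 and 131 CPM, above the reticular 24.1 to 30.0 CPM. Plin2, the coat protein of small droplets, stood at 121, 124, 111, 112 and 67.2 CPM in these blood cells. Fabp5 was uneven, with 306 CPM in exhausted against 55.04 CPM in control. Thrsp stood at 0.669 CPM or less in the blood cells of all 5 libraries.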
